A study of Mus musculus with 18 samples.

Results

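The genes described here are 10 markers of Kupffer cells, the macrophages resident in the sinusoids of the liver: Clec4f, Vsig4, Timd4, Marco, Cd5l, Adgre1, Csf1r, C1qa, C1qb and C1qc. They were chosen by name, as every probe set of the Affymetrix Mouse430_2 array paired with exactly 1 of these symbols. That gave 15 probe sets for the 10 genes, out of 34945 probe sets with 1 symbol for 18193 genes. Csf1r and C1qb had 3 probe sets each, Marco had 2 and the other genes had 1 each. All 15 passed the filter on dim probe sets, which left 33778 of 45037 for testing.

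The arrays measured whole liver RNA of male C57BL/6J mice, 1 mouse per array, and the labels name no transgene and no isolation of cells. The mice were 5 weeks old on arrival, ate a standard diet for 1 week and then 1 of 3 diets for 20 weeks. The Western plus quercetin group ate the Western-style diet with 0.05% quercetin, a plant flavonol. The Western group ate that diet alone, with 39.9% of its energy from fat (20% butter and 1% soy oil), 34.0% from sucrose and 0.15% cholesterol. The control group ate AIN93G, a purified rodent diet. All were housed 3 to a cage and killed under pentobarbital. Which mice shared a cage is not given, so the p-values treat each mouse as independent. Each group had 6 arrays, but control arrays 4 and 5 were nearly identical and were averaged as 1 sample, so n was 6, 6 and 5. Whether control arrays 4 and 5 came from different mice is not known.

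Kupffer cells are seeded before birth and renew themselves in the liver, where signals from neighbouring endothelial, stellate and liver parenchymal cells keep their identity. They bind and remove dying cells, lipoproteins, bacteria and complement-coated particles from portal blood. In mouse liver Clec4f and Timd4 are used as markers of the resident cells. Adgre1, Csf1r and the C1q chains are also made by macrophages that arise from blood monocytes. The origin of the cells behind the values of any member was not tested.

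Promoter sequences of 4 members are shown here because their genes gave the contrasting patterns of the results: Cd5l and C1qb had the called increases, and Timd4 and Marco had the negative differences. Each line gives 250 bases before to 50 bases after the gene's start, 5′ to 3′ on the gene's strand, from RefSeq on GRCm38.p6, which held promoters for 7 of the 10 members. The regions are chr3:87357631-87357930 on the plus strand for Cd5l, chr4:136886151-136886450 on the minus strand for C1qb, chr11:46810549-46810848 on the plus strand for Timd4 and chr1:120504975-120505274 on the minus strand for Marco. Capitals mark the core motif GAGGAA, or TTCCTC where it lies on the opposite strand, of PU.1, a transcription factor of myeloid cells.
Cd5l: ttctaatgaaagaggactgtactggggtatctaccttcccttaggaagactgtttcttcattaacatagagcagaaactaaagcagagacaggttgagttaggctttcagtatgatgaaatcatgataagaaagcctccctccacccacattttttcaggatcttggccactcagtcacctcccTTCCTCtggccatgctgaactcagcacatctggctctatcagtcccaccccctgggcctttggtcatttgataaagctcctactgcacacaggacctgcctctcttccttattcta
C1qb: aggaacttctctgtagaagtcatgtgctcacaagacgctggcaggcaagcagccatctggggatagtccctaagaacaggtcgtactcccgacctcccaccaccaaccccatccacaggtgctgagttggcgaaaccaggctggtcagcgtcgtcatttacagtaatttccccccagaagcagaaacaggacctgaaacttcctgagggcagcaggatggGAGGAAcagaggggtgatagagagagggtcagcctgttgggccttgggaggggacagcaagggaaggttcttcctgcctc
Timd4: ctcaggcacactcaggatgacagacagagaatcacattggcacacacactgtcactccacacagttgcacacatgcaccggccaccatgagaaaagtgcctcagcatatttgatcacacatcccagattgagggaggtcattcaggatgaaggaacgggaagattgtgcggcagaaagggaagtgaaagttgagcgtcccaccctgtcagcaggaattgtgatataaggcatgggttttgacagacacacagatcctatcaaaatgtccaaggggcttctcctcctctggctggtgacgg
Marco: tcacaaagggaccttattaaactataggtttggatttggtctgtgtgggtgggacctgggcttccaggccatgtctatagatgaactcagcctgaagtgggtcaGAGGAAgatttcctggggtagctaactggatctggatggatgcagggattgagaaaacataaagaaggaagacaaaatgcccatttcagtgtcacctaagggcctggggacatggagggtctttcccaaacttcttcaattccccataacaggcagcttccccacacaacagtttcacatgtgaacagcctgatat
The PU.1 core began at -66 in Cd5l, at -30 in C1qb and at -146 in Marco, counted from the start, and it was also present in the windows of Vsig4 and C1qc. It was not among the letters of the Timd4 and Clec4f windows. Of all 32851 RefSeq promoters of this length, 28.3% held it on either strand. The half-site TGCTGA bound by Maf factors, present in 19.5% of all promoters, was found in Timd4, Cd5l, C1qb, Clec4f and Vsig4. The half-site AGGTCA bound by nuclear receptors, present in 16.3% of all promoters, was found in Timd4, Clec4f and C1qc. These matches describe the letters only, and none overlapped the PU.1 core.

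Values are log2(intensity + 16) after quantile normalization, so a fold is a ratio of intensity + 16 and understates the change of dim probe sets such as those of Timd4 and Marco. Levels are compared between diets within a probe set, never between probe sets. In bulk tissue, fewer cells of a type and less RNA per cell cannot be told apart. Tests were limma's, with Benjamini-Hochberg adjustment over all 33778 probe sets, and a change was called at an adjusted p under 0.05.

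Against the control diet, the Western-style diet raised Cd5l and 1 probe set of C1qb, and no member fell. Of the 15 probe sets, 2 were called, both higher, where 4.35% of all probe sets were called, 2.9% higher and 1.45% lower. The same 2 were the only members whose Western mice all lay above every control sample, a pattern of 2.84% of all probe sets. No member had all Western mice below every control sample, as 1.89% of all probe sets had. Differences were positive for 12 probe sets and negative for 3, those of Timd4 and Marco, and the median over members was 0.45 against -0.01 over all probe sets. An unadjusted p under 0.05 was found for 13 of the 15 members and for 18.3% of all probe sets.

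**Figure D1:**
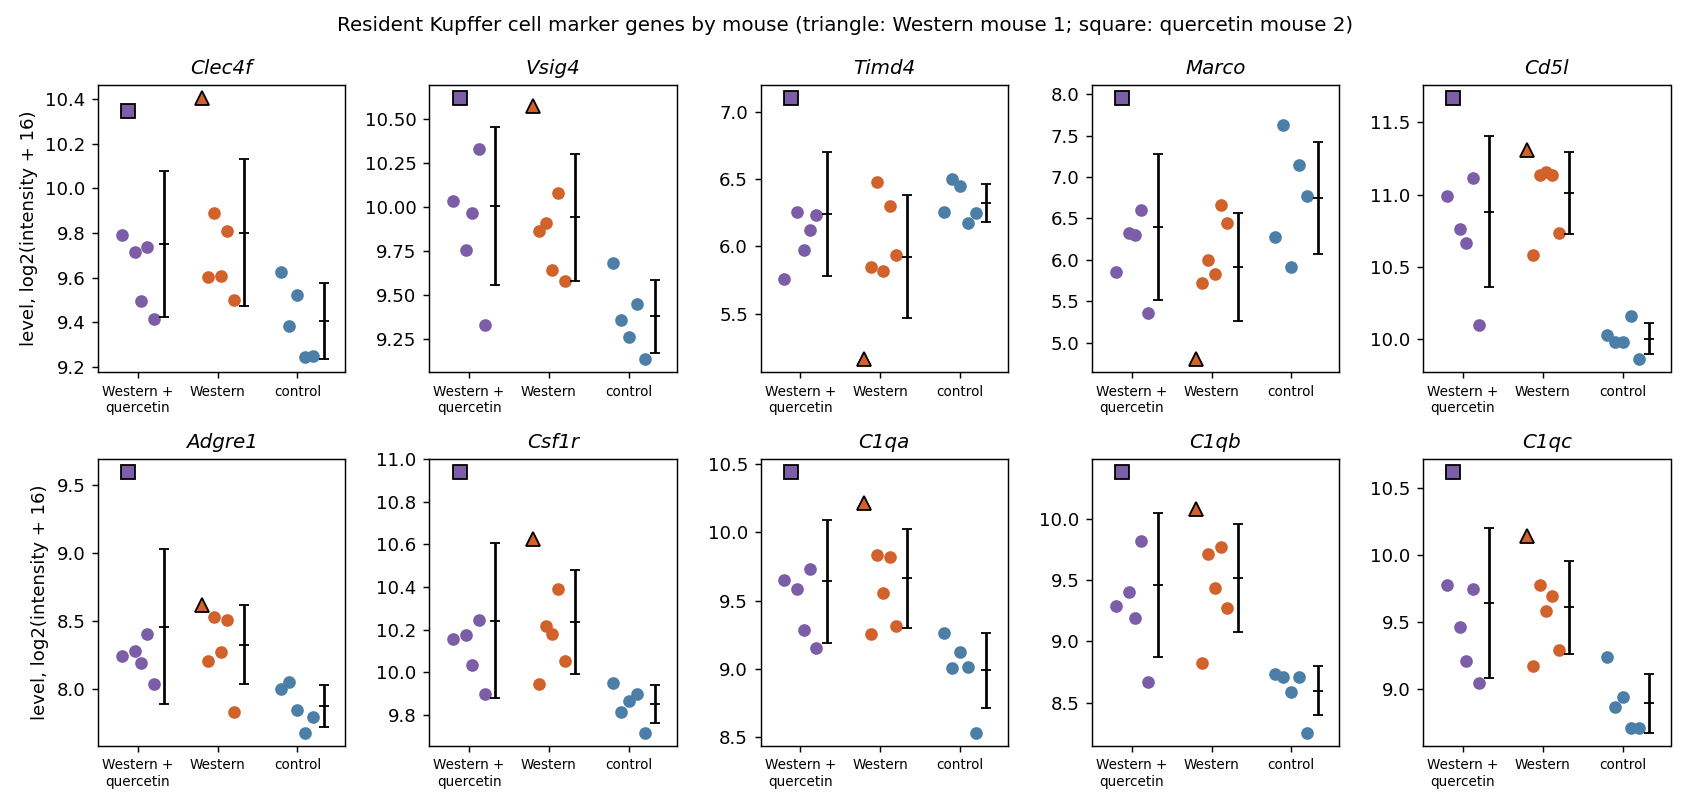
Level of each member by mouse, as log2(intensity + 16), with the brightest probe set of each gene in a panel of its own and its own vertical scale; bars give the group mean ± SD. In Cd5l and C1qb every Western point lies above every control point, and in Timd4 and Marco the triangle of Western mouse 1 is the lowest point.

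Cd5l, a secreted scavenger protein of macrophages that binds lipids and pathogens, had the largest increase of the members. Its level was 10.10 at the lowest, 10.87 at the median and 11.67 at the highest in Western plus quercetin livers, and 10.58, 11.13 and 11.31 in Western livers. The control samples had 10.03, 9.98, 9.98, 10.16 and 9.86. All Western mice and 5 of the 6 quercetin mice lay above the highest control sample. In deposited intensity the means were 2041 ± 689 in Western plus quercetin livers (SD, n = 6), 2166 ± 519 in Western livers (SD, n = 6) and 916 ± 133 in control livers (SD, n = 5). The Western diet raised Cd5l 2.01-fold over control (log2 difference 1.01 ± 0.20, SE; adjusted p = 0.00578, limma).

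The Cd5l difference was called in 29 of 32 alternative settings, with values from 0.80 to 1.20. Within mice numbered 1 to 3 it was 1.01 and within those numbered 4 to 6 it was 0.99, and neither was called (adjusted p = 0.124 and 0.125, limma) in these smaller sets. A measure related to RNA integrity, the log2 ratio of actin probe sets at the 3′ end over the 5′ end, differed between diets. It was 0.55 ± 0.08 in Western plus quercetin, 0.54 ± 0.11 in Western and 0.69 ± 0.06 in control livers (SD, n = 6, 6 and 5). Its ranges overlapped, at 0.39 to 0.68 in Western and 0.63 to 0.77 in control livers. With that ratio as a covariate the Cd5l difference was 0.80 and was not called (adjusted p = 0.124, limma), and no member was called. Since the ratio differed between diets, this setting cannot separate it from the diet.

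C1q opens the classical complement pathway, is built of the 3 chains encoded by C1qa, C1qb and C1qc, and in the liver is made mainly by macrophages. For the brightest C1qb probe set, 1417063_at, the lowest, median and highest levels were 8.67, 9.34 and 10.38 in Western plus quercetin livers and 8.82, 9.57 and 10.08 in Western livers. The control samples had 8.73, 8.71, 8.58, 8.71 and 8.25. All Western mice lay above every control sample. The Western diet raised this probe set 1.89-fold (log2 difference 0.92 ± 0.24, SE; adjusted p = 0.0361, limma).

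This C1qb call was less stable than that of Cd5l. It held in 18 of 32 alternative settings, and leaving out single samples moved its adjusted p between 0.0120 and 0.0953, with 0.0869 without Western mouse 1 and 0.0953 without control mouse 6. Within numbers 1 to 3 and 4 to 6 the difference was 0.86 and 1.01, and with the actin ratio as a covariate it was 0.67 (adjusted p = 0.314, limma). The other C1qb probe sets, whose _x_at names mark probes that can bind further transcripts, had differences of 0.65 (1437726_x_at, adjusted p = 0.123, limma) and 0.52 (1434366_x_at, adjusted p = 0.0564, limma). The 3 probe sets of C1qb thus pointed the same way but only 1 was called.

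C1qa averaged 9.64 ± 0.45 in Western plus quercetin, 9.66 ± 0.36 in Western and 8.99 ± 0.27 in control livers (SD, n = 6, 6 and 5). Its Western minus control difference was 0.68 ± 0.20 (SE; adjusted p = 0.0669, limma). C1qc averaged 9.64 ± 0.56 in Western plus quercetin, 9.61 ± 0.35 in Western and 8.89 ± 0.22 in control livers, with a difference of 0.72 ± 0.22 (SE; adjusted p = 0.0743, limma). For both genes 5 of the 6 Western mice lay above the highest control sample, and neither difference was called.

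Clec4f, a galactose-binding C-type lectin that in mice is found on Kupffer cells, is a widely used marker of the resident cells. Its lowest, median and highest levels were 9.42, 9.73 and 10.35 in Western plus quercetin livers and 9.50, 9.71 and 10.41 in Western livers. The control samples had 9.63, 9.38, 9.52, 9.24 and 9.25. The groups overlapped, with 3 of 6 Western mice above the highest control sample. The Western minus control difference was 0.40 ± 0.16 (SE) and was not called (adjusted p = 0.192, limma), with a 95% interval from 0.06 to 0.74.

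Vsig4, the receptor that lets Kupffer cells capture particles coated with complement C3 fragments, had 9.33, 10.00 and 10.62 as its lowest, median and highest levels in Western plus quercetin livers, and 9.58, 9.89 and 10.57 in Western livers. The control samples had 9.68, 9.36, 9.26, 9.45 and 9.13. The difference between the Western and control diets was 0.56 ± 0.20 (SE; adjusted p = 0.116, limma), and 4 of 6 Western mice lay above the highest control sample. Adgre1, which encodes the macrophage surface antigen F4/80, averaged 8.46 ± 0.57 in Western plus quercetin, 8.33 ± 0.29 in Western and 7.87 ± 0.15 in control livers (SD, n = 6, 6 and 5). Its difference was 0.45 ± 0.21 (SE; adjusted p = 0.263, limma), so neither gene was called.

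Csf1r, the receptor for the growth factors CSF1 and IL-34 on which macrophages depend for survival, was read by 3 probe sets. Their Western minus control differences were 0.38, 0.42 and 0.40 (1419872_at, 1419873_s_at and 1423593_a_at), with adjusted p values of 0.167, 0.173 and 0.318 (limma). The probe sets gave nearly the same size, and none was called. The ligands Csf1 and Il34, picked from the niche list after their values were seen, had differences of 0.25 (adjusted p = 0.361, limma) and 0.13 (adjusted p = 0.594, limma).

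Timd4, a receptor for phosphatidylserine on dying cells, and Marco, a class A scavenger receptor for bacteria and particles, had the negative differences. Timd4 had 5.76, 6.18 and 7.11 as its lowest, median and highest levels in Western plus quercetin livers, and 5.16, 5.89 and 6.48 in Western livers. The control samples had 6.25, 6.50, 6.45, 6.18 and 6.25. Of the 6 Western mice 4 lay below the lowest control sample, while Western mouse 3 was near the highest. The difference was -0.40 ± 0.21 (SE; adjusted p = 0.334, limma), with a 95% interval from -0.85 to 0.04.

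Marco was dim and variable. Its probe set 1449498_at had 5.36, 6.32 and 7.95 as its lowest, median and highest levels in Western plus quercetin livers, and 4.81, 5.92 and 6.66 in Western livers. The control samples had 6.27, 7.62, 5.92, 7.14 and 6.77. In deposited intensity those control samples ran from 35.9 to 170, a wider spread than the difference between diets. The Western minus control differences were -0.83 ± 0.39 (1449498_at, SE; adjusted p = 0.266, limma) and -0.88 ± 0.35 (1458297_s_at, SE; adjusted p = 0.170, limma). For both probe sets all 6 Western mice lay below the control mean, the groups overlapped and neither difference was called.

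**Figure D2:**
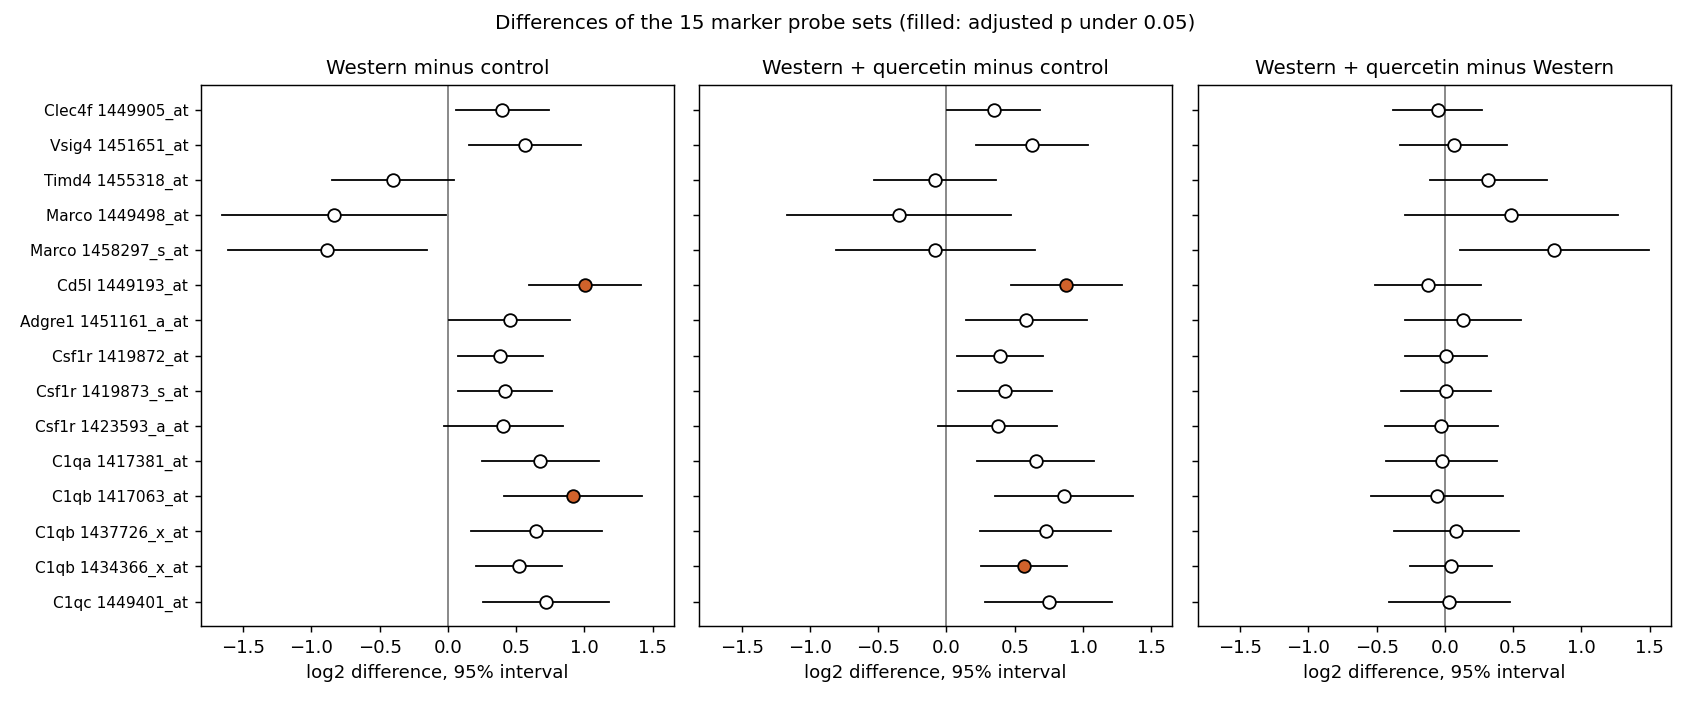
Log2 differences of the 15 member probe sets with 95% intervals of limma's fit, for Western minus control, Western plus quercetin minus control and Western plus quercetin minus Western; filled points had an adjusted p under 0.05. The 2 filled points on the left are Cd5l and C1qb 1417063_at, the 2 in the middle are Cd5l and C1qb 1434366_x_at, and none is filled on the right.

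Quercetin was added to the Western-style diet to ask whether it alters the response to that diet. Between Western plus quercetin and Western livers no member was called, and 0% of all probe sets were called. The groups overlapped for every member, where 0.0799% of all probe sets had every quercetin mouse above the Western mice and 0.077% had every one below. An unadjusted p under 0.05 was found for 1 member and for 3.27% of all probe sets. Differences were positive for 10 members and negative for 5, with a median of 0.03 against -0.0019 over all probe sets. The intervals bound what could have been missed: the 95% interval ran from -0.52 to 0.26 for Cd5l, from -0.38 to 0.27 for Clec4f, from -0.54 to 0.42 for C1qb 1417063_at and from -0.33 to 0.46 for Vsig4.

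The member with the unadjusted p under 0.05 was Marco 1458297_s_at, at 0.80 ± 0.33 (SE; 95% interval 0.11 to 1.50; adjusted p = 1.00, limma). Its lowest, median and highest levels were 5.15, 5.76 and 7.25 in Western plus quercetin livers and 4.17, 5.17 and 5.96 in Western livers, and the groups overlapped. The other Marco probe set differed by 0.49 (95% interval -0.29 to 1.27) and Timd4 by 0.32 (95% interval -0.11 to 0.75). These 3 differences rested in part on quercetin mouse 2, without which they were 0.53, 0.18 and 0.15. Without both that mouse and Western mouse 1, a setting chosen after seeing the data, they were 0.35, -0.04 and -0.01.

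Against the control diet, Western plus quercetin raised Cd5l and a different probe set of C1qb. Of the 15 members 2 were called, both higher, where 2.85% of all probe sets were called, 1.86% higher and 0.986% lower. The member differences were 12 positive and 3 negative, with a median of 0.57 against -0.01 over all probe sets. An unadjusted p under 0.05 (limma) was found for 11 of the 15 members and for 15.8% of all probe sets. The groups overlapped for every member, where 1.88% of all probe sets had every quercetin mouse above the control samples and 1.42% had every one below. Cd5l rose 1.84-fold (log2 difference 0.88 ± 0.20, SE; adjusted p = 0.0185, limma) and C1qb 1434366_x_at rose 1.48-fold (0.57 ± 0.15, SE; adjusted p = 0.0492, limma). The Cd5l call held in 28 of 32 alternative settings, and its adjusted p was 0.0518 (limma) without control mouse 6, while that of C1qb 1434366_x_at held in 11 of 31. The C1qb probe set called for the Western diet alone had 0.86 (1417063_at, adjusted p = 0.0628, limma). Since both comparisons use the same control samples, they are not independent.

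The differences of 5 uncalled members are set beside those of the Western diet alone. Differences from control were 0.35 for Clec4f, 0.63 for Vsig4, 0.58 for Adgre1, 0.65 for C1qa and 0.75 for C1qc, with adjusted p values from 0.0790 to 0.307 (limma). The corresponding Western minus control differences were 0.40, 0.56, 0.45, 0.68 and 0.72. Timd4 and Marco lay further from their Western minus control values of -0.40, -0.83 and -0.88: Timd4 had -0.08 (adjusted p = 0.896, limma) and the Marco probe sets had -0.34 (1449498_at, adjusted p = 0.735, limma) and -0.08 (1458297_s_at, adjusted p = 0.943, limma). The sign of Timd4 and of both Marco probe sets depended on the setting: as deposited, without normalization between arrays, Timd4 was 0.20 and Marco 1458297_s_at 0.17 above control, and within numbers 1 to 3 Marco 1449498_at was 0.11 above control.

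Single mice stood at the end of their group for many members. Quercetin mouse 2 was the highest of its group in all 15 probe sets, and quercetin mouse 6 was the lowest in 13. Western mouse 1 was the highest of its group in 12 probe sets and the lowest in the other 3, which were those of Timd4 and Marco. Among control samples, number 1 was the highest in 9 and number 6 the lowest in 9. These ends were not particular to the members. Summed intensities of the other Kupffer cell, macrophage lineage, lipid-associated macrophage, monocyte, dying-cell uptake and stellate cell lists described below had the same ends. In each, quercetin mouse 2 was the highest and quercetin mouse 6 the lowest of its group, and Western mouse 1 the highest of its group. Every remaining list had a different mouse at 1 or more of these ends, and the hepatocyte markers had different mice at each of them. Without quercetin mouse 2, 7 members were called in Western minus control and 1 in Western plus quercetin minus control, and without quercetin mouse 6, 6 members were called in Western plus quercetin minus control. Quercetin mouse 2 is in neither group of Western minus control, whose member median stayed at 0.45 without it. That count changed only through the spread, which the fit estimates over all diets together.

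After the group mean was subtracted, the 28 pairs among the other 8 genes correlated across the 17 samples at r = 0.74 to 0.95, with a median of 0.88. The 16 pairs of Timd4 or Marco with those 8 genes had r = 0.02 to 0.55, with a median of 0.29. The second set rested on single mice: without Western mouse 1 its 16 pairs had r = 0.44 to 0.83, with a median of 0.66, and without quercetin mouse 2 they had r = -0.46 to 0.14, with 13 of the 16 negative. Without both mice its median was 0.31 and that of the 28 pairs was 0.73. Within a diet the 16 pairs had r = 0.47 to 0.95 in Western plus quercetin and -0.71 to -0.05 in Western livers (n = 6 each), while the 28 pairs had 0.79 to 0.99 in Western plus quercetin and 0.58 to 0.99 in Western livers. These are descriptions of 17 samples, and genes measured on the same array share its brightness and RNA. The 2 probe sets of Marco correlated with each other at 0.94, those of Csf1r at 0.89 to 0.95 and those of C1qb at 0.64 to 0.90.

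**Figure D3:**
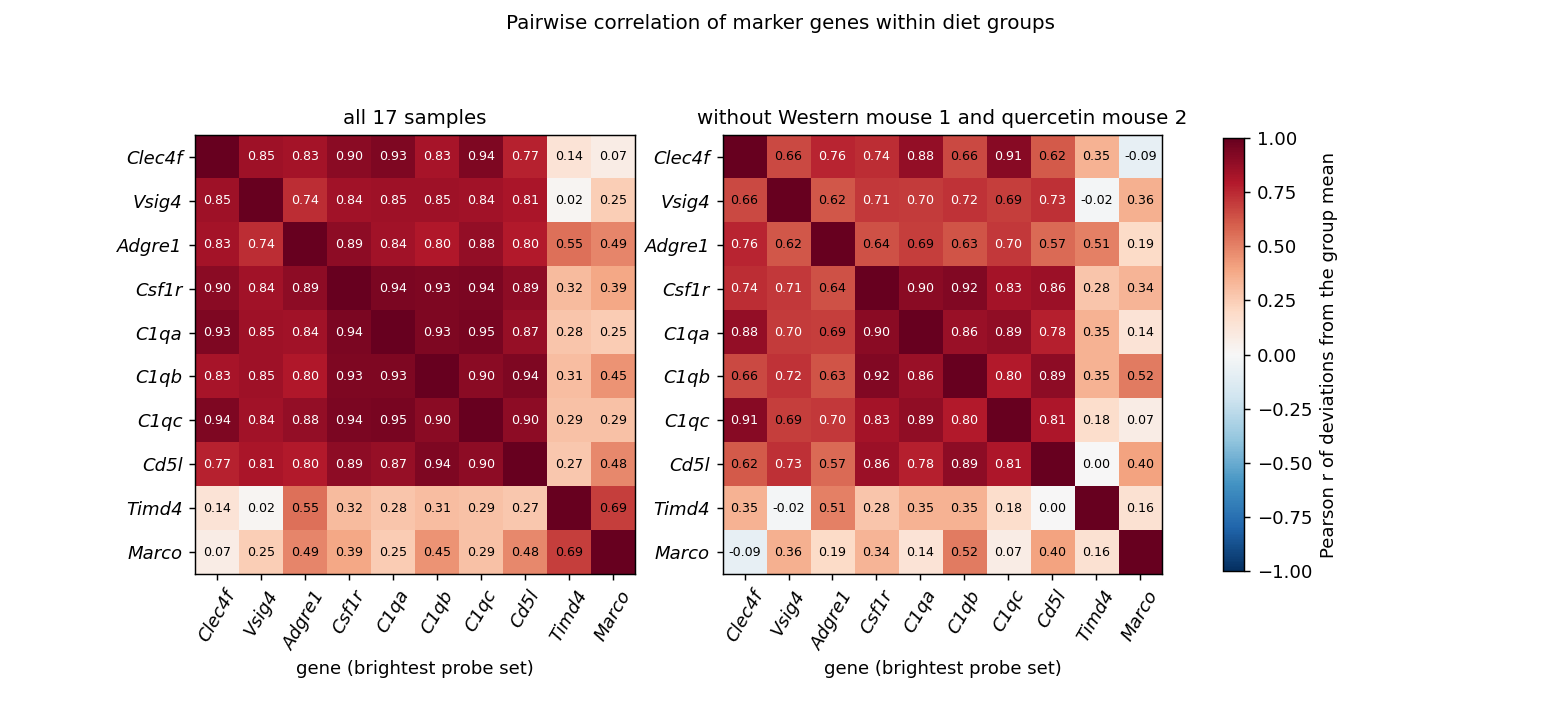
Pearson correlation of each pair of members after subtraction of the group mean, over all 17 samples on the left and without Western mouse 1 and quercetin mouse 2 on the right, from -1 in blue to 1 in red. The block of 8 genes is dark red in both panels, with a median r of 0.88 and 0.73, and the rows of Timd4 and Marco are pale.

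Timd4 and Marco were set against Clec4f to show how far the resident markers parted. Western mouse 1 had the highest Clec4f level of all samples, 10.41, with the lowest Timd4 level, 5.16, and the lowest Marco level, 4.81 (1449498_at). Quercetin mouse 2 had nearly the same Clec4f level, 10.35, with the highest Timd4 level, 7.11, and the highest Marco level, 7.95. The correlation of Clec4f with Timd4 was 0.14 over all samples, 0.73 without Western mouse 1, -0.40 without quercetin mouse 2 and 0.35 without both, so its sign rested on single mice. Timd4 and Marco correlated at 0.69 over all samples and at 0.16 without both mice.

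**Figure D4:**
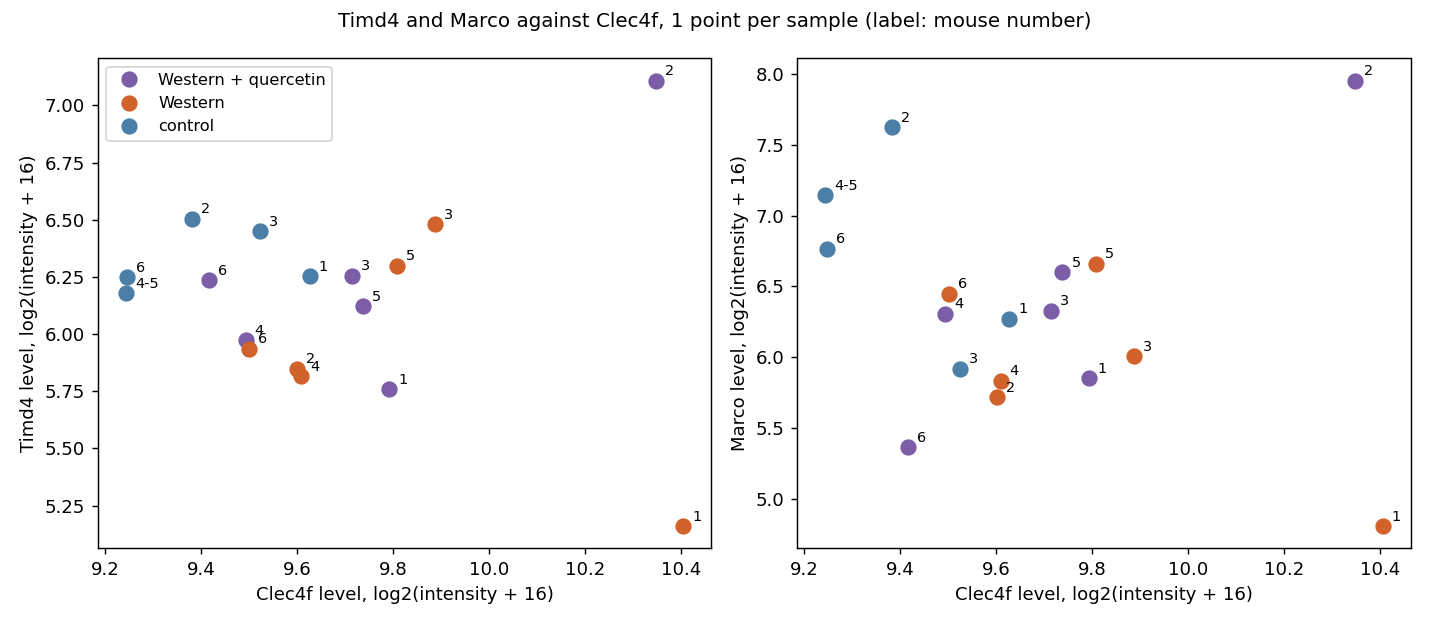
Level of Timd4 (left) and Marco 1449498_at (right) against Clec4f, each as log2(intensity + 16), 1 point per sample with its mouse number. Western mouse 1 (Clec4f 10.41, Timd4 5.16, Marco 4.81) and quercetin mouse 2 (Clec4f 10.35, Timd4 7.11, Marco 7.95) lie apart from the other samples at the right edge of both panels.

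Among 14960 other genes, those whose deviations followed Clec4f most closely over the 17 samples were Folr2, a folate receptor of tissue macrophages, at r = 0.95, Ppp1r18 at 0.92, Ctla2b at 0.92, Inhbb, a chain of activin B, at 0.91, and Aldh18a1, an enzyme of proline synthesis, at 0.90. For the mean of the C1q chains they were Tmsb4x, an actin-binding thymosin, at 0.97, Arhgdib at 0.95, Ctla2b at 0.95, Tyrobp, a signalling adaptor of myeloid receptors, at 0.95, and Cotl1, an actin-binding protein, at 0.94. Without Western mouse 1 and quercetin mouse 2 these r values were 0.78 to 0.87 for Clec4f and 0.87 to 0.94 for C1q.

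Other genes known to mark Kupffer cells had calls in both directions. Of 18 tested by their brightest probe set, 2 rose and 1 fell on the Western diet, with a median difference of 0.29. Differences were positive for 13 of the 18, against 47.6% of all probe sets. An unadjusted p under 0.05 (limma) was found for 9 of the 18 and for 18.3% of all probe sets. Clec1b, a C-type lectin receptor, averaged 8.46 ± 0.36 in Western and 7.63 ± 0.24 in control livers (SD, n = 6 and 5) and rose 1.78-fold (adjusted p = 0.0144, limma). Slc15a3, a lysosomal peptide transporter, rose 1.72-fold (adjusted p = 0.0272, limma). Cd163, the scavenger receptor for haemoglobin bound to haptoglobin, averaged 6.04 ± 0.34 in Western and 7.19 ± 0.32 in control livers (SD, n = 6 and 5) and fell 2.22-fold (adjusted p = 0.00403, limma). Sdc3, a cell-surface proteoglycan, differed by 0.59 and was not called (adjusted p = 0.0792, limma). With quercetin, Clec1b was 1.86-fold higher (adjusted p = 0.0129, limma) and Cd163 was 1.77-fold lower than in control livers (adjusted p = 0.0406, limma).

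Of 10 tested ligands of the CSF1 receptor and signals of the Kupffer cell niche, 1 rose on the Western diet and none fell, with a median of 0.22. It was Jag1, a Notch ligand, which rose 1.33-fold (adjusted p = 0.0382, limma). Tgfb1, the growth factor that sustains Kupffer cell identity, differed by 0.48 (adjusted p = 0.120, limma) and Dll4, the Notch ligand of sinusoidal endothelium, by 0.44 (adjusted p = 0.122, limma). In Western plus quercetin minus control 0 of the 10 were called by limma, with 5 at an unadjusted p under 0.05, beside 15.8% of all probe sets.

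Of 18 tested genes of the wider macrophage lineage 13 rose on the Western diet and none fell, with a median difference of 0.74, and 7 rose with quercetin relative to control. In Western plus quercetin minus Western none of the 18 was called, with a median of -0.085. Lyz2, the macrophage lysozyme, rose 2.65-fold (adjusted p = 0.00343, limma), Cd14, a receptor for bacterial lipopolysaccharide, 2.07-fold (adjusted p = 0.00439, limma), Axl, a receptor for dying cells, 1.96-fold (adjusted p = 0.00616, limma), and Mpeg1, a pore-forming protein of phagocytes, 1.90-fold (adjusted p = 0.00190, limma). Of 11 genes of lipid-associated macrophages 6 rose in both Western groups relative to control and none fell. Gpnmb, a membrane glycoprotein of lipid-laden macrophages, averaged 7.02 ± 0.48 in Western and 4.53 ± 0.31 in control livers (SD, n = 6 and 5), and rose 5.62-fold (adjusted p = 0.000172, limma). Mmp12, the macrophage elastase, rose 5.05-fold, Lpl, lipoprotein lipase, 3.81-fold, and Lgals3, the lectin galectin-3, 3.32-fold. Trem2, Cd9, Itgax, Fabp5 and Plin2 of this list were not called on the Western diet, with adjusted p values from 0.0643 to 0.979 (limma). Their differences were 0.01, 0.45, 0.68, 0.17 and 0.34. Trem2 averaged 4.61 in Western and 4.59 in control livers, near the filter at 4.40. Whether the resident markers differed from these lists was not tested.

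Of 9 monocyte genes 4 rose on the Western diet and none fell, with a median of 0.68, and 1 rose with quercetin relative to control. In Western plus quercetin minus Western none of the 9 was called, with a median of -0.19. S100a4, Ccl2 and Cx3cr1 were dim, with control means of 4.64, 4.66 and 4.87 beside a filter at 4.40. Ccl2, the chemokine that draws monocytes, rose 2.08-fold (adjusted p = 0.00647, limma), S100a4, a calcium-binding protein, 1.76-fold (adjusted p = 0.0328, limma), Cx3cr1, the fractalkine receptor, 1.60-fold (adjusted p = 0.00167, limma), and Plac8 1.47-fold (adjusted p = 0.0382, limma). The summed normalized intensity of the 10 members was 5098 to 13397 in Western plus quercetin, 6114 to 10692 in Western and 4283 to 5538 in control livers. That of the 9 monocyte genes was 335 to 749 in Western plus quercetin, 410 to 698 in Western and 282 to 372 in control livers. In control and Western livers the monocyte sum rested mostly on Plac8 (means 7.84 and 8.39), so it does not measure monocyte content. The highest sums of both lists were those of quercetin mouse 2 and Western mouse 1, and the part of recruited cells in the values of Cd5l and C1qb was not tested.

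**Figure D5:**
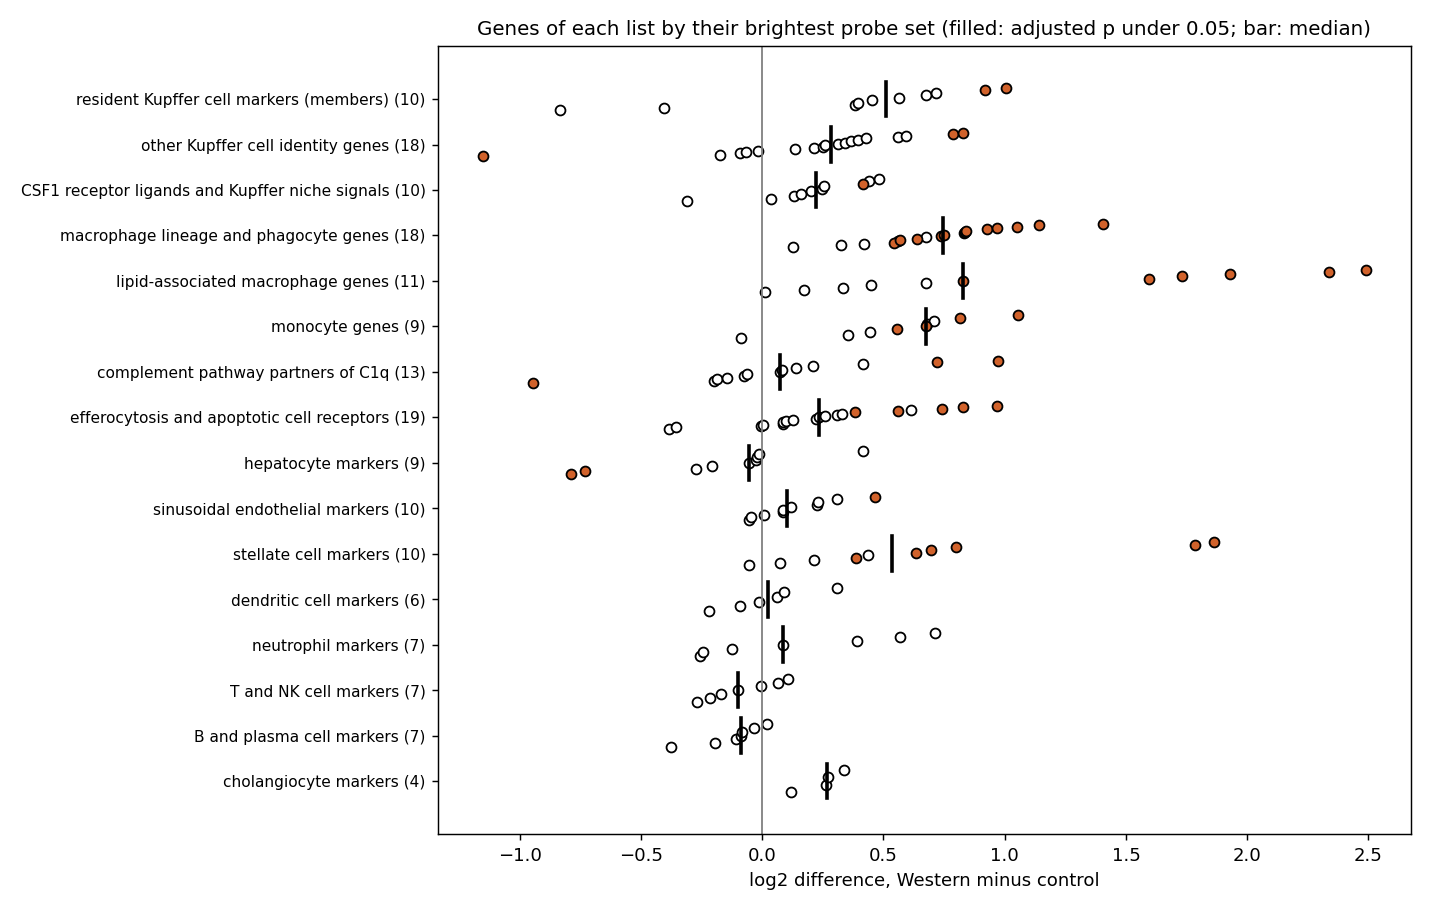
Western minus control log2 differences of the genes of each list, 1 point per gene by its brightest probe set, with the number tested in brackets; filled points had an adjusted p under 0.05 and bars are list medians. The members have a median of 0.51 by gene with Timd4 and Marco on the left, below the 0.74 of macrophage lineage genes and the 0.83 of lipid-associated macrophage genes.

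C1q acts with circulating complement proteins that are made mostly by hepatocytes. Of 13 tested partners 2 rose and 1 fell on the Western diet, with a median of 0.07. C8b, a chain of the membrane attack complex, fell 1.93-fold (adjusted p = 0.0107, limma), while the receptor genes Itgb2, the shared integrin chain of complement receptors 3 and 4, and C3ar1, the receptor for the C3a fragment, rose 1.96-fold (adjusted p = 0.0427, limma) and 1.65-fold (adjusted p = 0.0121, limma). Cfi, a protease that inactivates C3b, differed by -0.19 (adjusted p = 0.136, limma). With quercetin, C8b fell 2.02-fold and C3ar1 rose 1.58-fold relative to control (adjusted p = 0.00949 and 0.0289, limma).

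Timd4 belongs to the receptors that take up dying cells. Of 19 such receptors and bridging proteins, 5 rose on the Western diet and none fell, with a median of 0.23, and 4 rose with quercetin relative to control. Besides Axl, Gas6, the ligand that bridges Axl to phosphatidylserine, rose 1.67-fold (adjusted p = 0.0179, limma), and Pros1, protein S, a bridging ligand of the same receptor family, rose 1.30-fold (adjusted p = 0.00799, limma).

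Markers of other liver cells were counted beside the members. Of 9 hepatocyte markers 2 fell on the Western diet, Tat, an enzyme of tyrosine breakdown, 1.72-fold and Ass1, an enzyme of the urea cycle, 1.66-fold (adjusted p = 0.0345 and 0.0248, limma). The list's summed intensity was 50475 to 54045 in Western plus quercetin, 49624 to 52439 in Western and 50777 to 54616 in control livers. That sum rests mostly on Apoa1, Ttr, Cyp2e1 and Alb (control means 13.43, 13.20, 13.19 and 13.08), near the top of the arrays. Quantile normalization gives every array the same distribution, so this sum cannot show whether the hepatocyte content differed between diets. Of 10 stellate cell markers 6 rose, with a median of 0.54, led by the collagens Col3a1, 3.63-fold, and Col1a1, 3.45-fold (adjusted p = 0.000340 and 0.000961, limma). Of 10 sinusoidal endothelial markers 1 rose, Lyve1, a hyaluronan receptor, 1.38-fold (adjusted p = 0.0447, limma). By limma 0 genes were called on the Western diet among 6 dendritic cell, 7 neutrophil, 7 T and NK cell, 7 B and plasma cell and 4 cholangiocyte markers, of which 1, 2, 1, 1 and 0 had an unadjusted p under 0.05. The part of these other cells in the values of the members was not tested. Between Western plus quercetin and Western livers 0 genes were called by limma in every list, members included, and the largest number at an unadjusted p under 0.05 was 1 per list.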

How the data were processed

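Liver RNA had been hybridised to 18 Mouse430_2 arrays after 1-cycle cDNA synthesis and biotin labelling, per the labels' protocols. The authors deposited 1 linear intensity per probe set, 45101 on each array. The method that summarised and scaled the scans is not given in the sources used here. Before normalization the 2% trimmed mean intensity was 82.3 to 95.4 in Western plus quercetin, 80.2 to 101.8 in Western and 66.7 to 80.8 in control arrays, so a quantile normalization was applied to log2(intensity + 16). Control probe sets (64) were left out. Probe sets were named through GEO's platform annotation: 34945 had 1 symbol, 932 several and 9160 none.

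Control arrays 4 and 5 (linear correlation 0.99966, next pair 0.99591) were averaged as sample 4-5. Probe sets whose mean level over all samples lay below percentile 25 (log2 4.40) were removed. A model with 1 mean per diet was fitted over 17 samples with limma 3.58.1 in R 4.3.3 (eBayes, two-sided, Benjamini-Hochberg over 33778 probe sets), after a test on simulated data. Figures and promoter matches used Python 3.11.15 and matplotlib 3.10.9. The number of mice limits precision: the 95% interval reached 0.31 to 0.82 to either side for members against control.

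Named genes were every member probe set, up to 4 genes of each other list with the smallest p for Western minus control, and the 5 genes nearest to Clec4f and to the C1q mean. Csf1, Il34, Trem2, Cd9, Itgax, Fabp5 and Plin2 fall outside this rule. Members, lists and tests were chosen with earlier results of these data known. Arrays of AIN93G with quercetin were not analysed here.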

Additional observations from a re-analysis of the deposited data

Results flagged for a closer look

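Values of 15 member probe sets were searched for a sample far from the others of its group, in 45 groups of 5 or 6 samples, and chance alone gives about 1 in 20. The search found 3, all in quercetin mouse 2, where 2.25 were to be found by chance at that rate. Its Csf1r level (1419872_at) was 10.94, against 10.25 in the next highest mouse. Its Adgre1 level was 9.60, against 8.40. Its Timd4 level was 7.11, against 6.26. The same mouse was the highest of its group in all 15 probe sets, so these 3 are not separate observations.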

How the results depend on the processing

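For Western minus control the 12 positive and 3 negative signs of the members were the same under all 32 alternatives. The count of called members was 2. It was 12 on the values as deposited, where the median of all probe sets shifted by 0.18 and 5591 were called higher against 145 lower (979 and 489 after quantile normalization), and 6 with array medians centred (1503 and 288). It was 1 with a pseudocount of 1 and with no filter, 5 with control arrays 4 and 5 as 2 samples, 4 with only the 2 groups compared, 5 with numbers 1-3 and 4-6 as a term, and 0 within each of those sets and with the actin ratio as a covariate. Leaving out single samples gave 1 (each of control 2, 3, 4-5 and 6 and of Western 1, 3, 4 and 5), 4 (Western 2) or 7 (quercetin 2), and 2 or 3 otherwise.

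For Western plus quercetin minus control the count was 2. It was 12 as deposited (shift of all probe sets 0.19, 5265 called higher and 97 lower, against 629 and 333), 4 with medians centred (774 and 161), 1 with a pseudocount of 1, with no filter and with only the 2 groups compared, 4 with control arrays 4 and 5 as 2 samples, 5 with the number sets as a term, and 0 within each set and with the actin ratio. Leaving out single samples gave 0 (control 6), 6 (quercetin 6) or 1 (each of control 2, 3 and 4-5, of Western 3, 4 and 5 and of quercetin 1 to 5), and 2 otherwise. Without Western mouse 1 and quercetin mouse 2, an alternative chosen after seeing the data, it was 1. Signs differed in 10 of 475 values, all of Timd4 or Marco and none called. For Western plus quercetin minus Western it was 0 under all 32 alternatives, and 52 of 475 uncalled values had another sign. A sample outside the groups compared acts on a count only through the spread estimated over all diets together. The cause of the other shifts was not tested.

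Mice were not treated as paired by replicate number, since the labels give no shared source and not every pair deviated together: deviations of samples with the same number correlated at -0.22 to 0.30 over 18 pairs, 12 of them over 0.1. The lowest value, -0.22, was that of quercetin mouse 2 with Western mouse 2. As a hint from the data only, a sample correlated best with its own number in 21 of 34 matches, each to the 5 or 6 samples of another diet. What samples of the same number shared was not tested. With the number as a replicate block 5 members were called for Western minus control, 0 for Western plus quercetin minus Western and 4 for Western plus quercetin minus control. Marco had the widest intervals of the members.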
